A study of Mus musculus with 4 samples.

Results

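The 46 genes described here copy DNA or supply its building blocks. They were chosen by symbol from what their proteins do: origin licensing, the replicative helicase, the DNA polymerases, the sliding clamp, and deoxynucleotide synthesis. All 46 were among the 18436 genes measured, and all 46 were among the 12621 genes tested. RNA was sequenced from Lgr5-GFP-high cells, the brightest GFP cells sorted from disaggregated intestinal crypts of C57BL/6 mice, from 2 Lgr5-WT and 2 Lgr5-CREPTKO mice. The 4 mice shared Lgr5-EGFP-IRES-creERT2, which places GFP and a tamoxifen-inducible Cre recombinase under the Lgr5 gene. The Lgr5-CREPTKO mice also carried CREPT fl/fl, with exon 3 of CREPT between loxP sites. Both genotypes received the same daily tamoxifen injections (1 mg, over 5 days), and cells were sorted on day 7. Recombination is thus driven in Lgr5-expressing cells and inherited by their descendants. The animals of the study were of both sexes and aged 6 to 8 weeks, and the sex and exact age behind each library were not given in the sources used here.

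Before a cell divides, the origin recognition complex, Cdc6 and Cdt1 load the MCM2-7 ring onto DNA, and geminin (Gmnn) blocks Cdt1 once replication has begun. Cdc45 and the GINS complex then turn MCM2-7 into the moving helicase, RPA coats the unwound single strand, and polymerase alpha with its primase lays the primers that polymerases delta and epsilon extend on the PCNA clamp, which the RFC complex loads. Crypt base columnar cells, the Lgr5-expressing stem cells of the intestine, divide often, and many genes of this machinery are transcribed under E2F factors as cells enter S phase.

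Values are FPKM, fragments counted per kilobase of a transcript and scaled to the size of each library, so a level is relative to all other RNA in the same mouse. Log2 fold changes are differences of log2(FPKM + 0.5), Lgr5-CREPTKO minus Lgr5-WT, with the standard error and Benjamini-Hochberg adjusted p of limma's moderated test over all 12621 genes. With 2 mice per genotype an exact permutation test cannot go below p = 0.333. In these bulk samples, fewer cells of a type and less RNA per cell cannot be told apart. Rprd1b, which encodes CREPT, was at 17.7 and 18.1 FPKM in Lgr5-WT mice and at 6.65 and 7.36 FPKM in Lgr5-CREPTKO mice, a log2 fold change of -1.30 (SE 0.0946, adjusted p = 0.028), and part of its RNA remained. The stem cell marker Lgr5 was 37.7 to 60.1 FPKM and Olfm4 4932 to 5351 FPKM over the 4 mice. Markers of some other cells moved with genotype: the summed level of 14 enteroendocrine markers was 245 and 342 FPKM in Lgr5-WT and 80.2 and 89.4 FPKM in Lgr5-CREPTKO mice, and that of 9 goblet markers was 1479 and 2465 against 812 and 944 FPKM. Of these lists, 7 enteroendocrine and 2 goblet markers passed the test, all lower, and 13 and 8 lay below both Lgr5-WT values, as did 31.0% of all genes tested. Of 7 tuft markers measured 6 lay below, with sums of 19.6 and 41.1 against 16.2 and 6.57 FPKM and 0 past limma's test. The 7 Paneth markers summed to 1434 and 1047 FPKM in Lgr5-WT and to 853 and 2620 FPKM in Lgr5-CREPTKO mice, so that Lgr5-CREPTKO mouse 2 stood above the rest. The sums of 10 enterocyte markers overlapped, at 520 and 660 against 401 and 661 FPKM, with 1 marker below both Lgr5-WT values and 1 above. Those of 9 leukocyte and 9 stromal markers were at most 13.8 and 1.52 FPKM in any mouse. The summed level of 8 Lgr5-positive stem cell markers was 5722 and 5944 FPKM against 6221 and 6441 FPKM, with 8 of 8 above both Lgr5-WT values, where 25.6% of all genes tested lay, and 0 past limma's test, and no marker of these lists was at 0 in all mice. The part of these other cells in the results below was not tested.

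Promoter sequences are shown for the 4 members with the lowest p between genotypes, and for 2 members with positive log2 fold changes that hold an E2F word, so that the letters can be set beside the RNA values. Each is the 250 bases before the RefSeq start on GRCm38.p6, read 5′ to 3′ on the strand of the gene. Capitals mark E2F words (TTTCCCGC, TTTCGCGC, TTTGCCGC or TTTGGCGC) and CCAAT boxes (CCAAT), searched on both strands, so that a match on the other strand appears as its reverse complement such as GCGCGAAA or ATTGG. The windows were chr6:8259142-8259391 (minus strand) for Rpa3, chr5:30073626-30073875 (minus strand) for Tyms, chr16:23127731-23127980 (minus strand) for Rfc4, chr11:117826015-117826264 (minus strand) for Tk1, chr1:128359706-128359955 (minus strand) for Mcm6 and chr4:108579204-108579453 (plus strand) for Orc1.
Rpa3: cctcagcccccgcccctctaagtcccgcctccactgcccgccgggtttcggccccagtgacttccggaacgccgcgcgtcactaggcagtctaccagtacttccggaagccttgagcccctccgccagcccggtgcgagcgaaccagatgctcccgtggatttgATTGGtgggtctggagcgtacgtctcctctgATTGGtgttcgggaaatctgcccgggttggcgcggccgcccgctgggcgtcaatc
Tyms: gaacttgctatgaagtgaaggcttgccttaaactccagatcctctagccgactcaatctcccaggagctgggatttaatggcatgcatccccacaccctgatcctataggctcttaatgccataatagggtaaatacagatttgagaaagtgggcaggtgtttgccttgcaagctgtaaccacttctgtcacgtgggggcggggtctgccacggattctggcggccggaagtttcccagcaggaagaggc
Rfc4: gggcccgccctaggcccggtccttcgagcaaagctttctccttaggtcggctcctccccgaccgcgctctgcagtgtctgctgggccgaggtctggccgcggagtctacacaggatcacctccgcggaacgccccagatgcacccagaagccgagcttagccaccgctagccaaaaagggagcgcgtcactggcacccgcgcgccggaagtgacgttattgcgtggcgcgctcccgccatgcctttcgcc
Tk1: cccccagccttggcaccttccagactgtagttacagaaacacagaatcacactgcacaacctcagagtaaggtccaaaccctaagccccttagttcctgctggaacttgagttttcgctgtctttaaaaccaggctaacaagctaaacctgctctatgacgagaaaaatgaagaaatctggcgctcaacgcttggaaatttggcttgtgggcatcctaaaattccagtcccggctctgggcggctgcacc
Mcm6: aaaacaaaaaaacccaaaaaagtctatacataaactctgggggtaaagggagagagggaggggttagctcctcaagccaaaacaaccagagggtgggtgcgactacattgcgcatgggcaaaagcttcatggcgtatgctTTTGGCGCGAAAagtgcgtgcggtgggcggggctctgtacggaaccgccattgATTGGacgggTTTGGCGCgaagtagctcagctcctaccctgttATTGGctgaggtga
Orc1: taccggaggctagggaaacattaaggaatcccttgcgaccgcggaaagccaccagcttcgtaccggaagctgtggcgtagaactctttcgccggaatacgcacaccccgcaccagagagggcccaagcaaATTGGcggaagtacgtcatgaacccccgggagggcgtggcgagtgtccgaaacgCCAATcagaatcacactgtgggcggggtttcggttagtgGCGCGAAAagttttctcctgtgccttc

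The first of these windows holds 2 CCAAT boxes and no E2F word, and those of Tyms, Rfc4 and Tk1 hold neither. The window of Mcm6 holds 3 E2F words, of which a pair overlaps on opposite strands, and 2 CCAAT boxes. The window of Orc1 holds 1 E2F word and 2 CCAAT boxes. For Tyms and Mcm6 the bases after the RefSeq start were not found near the start of a GENCODE M21 transcript of the gene. The place of these windows is therefore less certain. Of the 46 members, 38 had an entry in the RefSeq promoter table. An E2F word was found in 9 of these 38 (23.7%), against 4.0% of the 9498 tested genes with an entry, and a CCAAT box in 23 (60.5%) against 40.8%. The 9 were Mcm5, Mcm6, Mcm7, Orc1, Orc3, Gins3, Rfc3, Cdc6 and Pola1, and their log2 fold changes ran from -0.12 to 0.24. The start was likewise not matched to a transcript for Mcm5 and for the Mcm7 window that holds the word. The other Mcm7 window, whose start was matched, holds no E2F word. The 6 members with the lowest log2 fold changes, Tyms, Rfc4, Tk1, Prim1, Rfc5 and Rpa3, all had an entry and 0 of the 6 held an E2F word, which says only that these letters are not in this window.

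Most members overlapped between the genotypes, and the 6 with the lowest log2 fold changes were subunits of 4 different groups: Tyms and Tk1 of nucleotide supply, Rfc4 and Rfc5 of the clamp loader, Prim1 of the primase and Rpa3 of RPA. Rpa3, the smallest subunit of RPA, was the 1 member past an adjusted p of 0.05, lower in Lgr5-CREPTKO cells. That is 1 of 46, 2.17%, where 2.67% of all genes tested were called lower. In the other direction 0 members were called against 0.412% of all genes, and 0 members passed both the adjusted p and an absolute log2 fold change above 1, against 1.14% of all genes. At an unadjusted p below 0.05, limma gave 8 members lower (17.4%, against 15.2% of all genes) and 0 higher (against 9.27%). In 14 members (30.4%) both Lgr5-CREPTKO values lay below both Lgr5-WT values, against 31.0% of all genes, and in 7 (15.2%) above, against 25.6%. The share of members in the lower direction was thus near the background. The median log2 fold change of the 46 was -0.01, with 23 negative and 23 positive, and that of all genes tested was also -0.01.

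**Figure D1:**
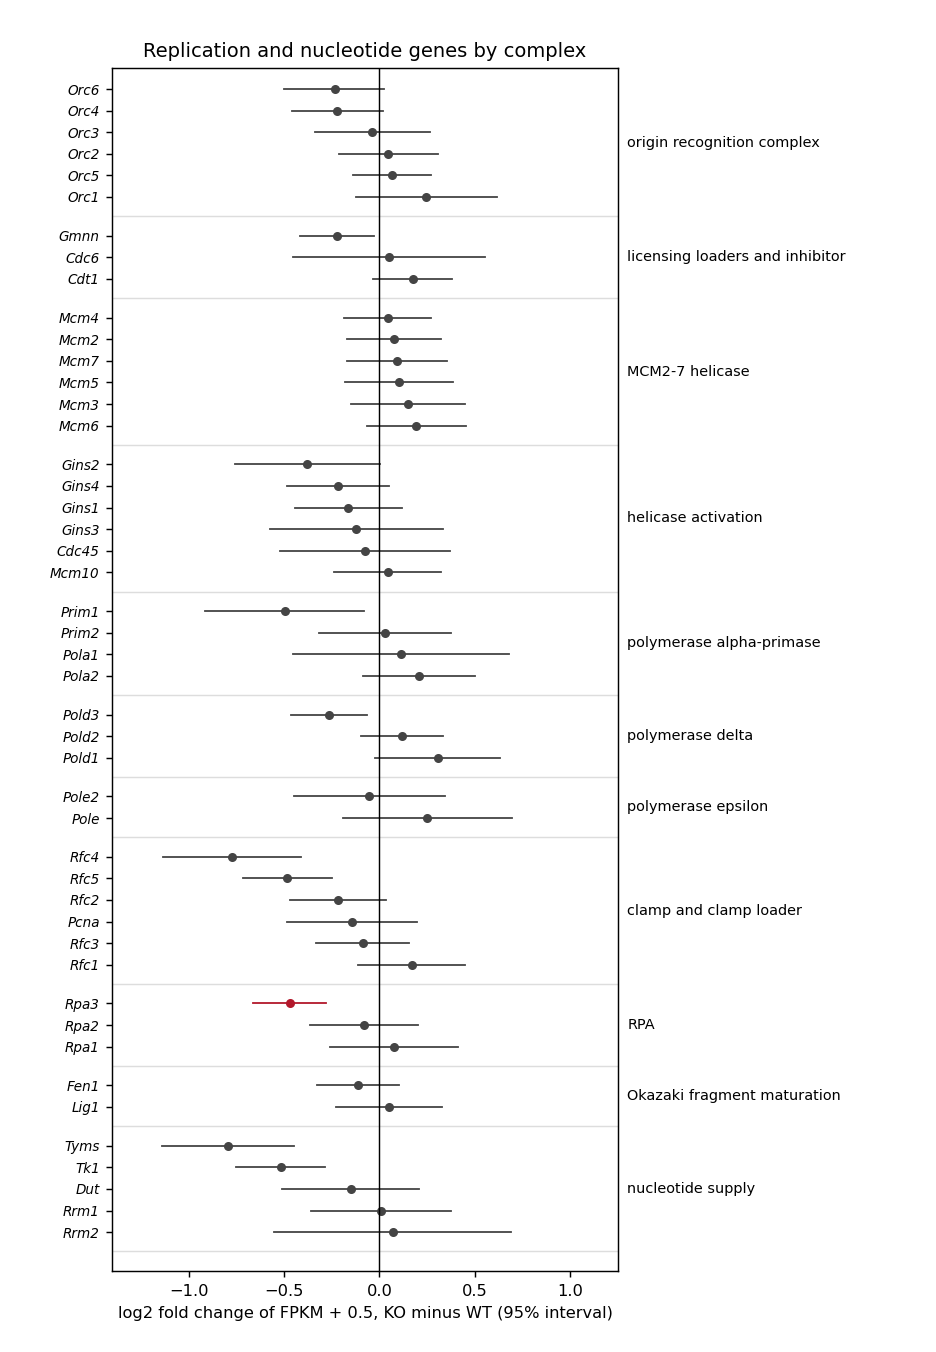
Log2 fold change of each of the 46 genes (x axis, difference of log2(FPKM + 0.5), KO for Lgr5-CREPTKO minus WT for Lgr5-WT), in rows grouped by complex, with 95% intervals from limma and the 1 called member in red. The 6 MCM2-7 subunits lie between 0.04 and 0.19, while Tyms, Rfc4, Tk1, Prim1, Rfc5 and Rpa3 lie between -0.47 and -0.79.

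The members summed to 1877 and 1652 FPKM in the Lgr5-WT mice and to 1797 and 1600 FPKM in the Lgr5-CREPTKO mice. These sums were 0.379% and 0.331% of all FPKM in Lgr5-WT and 0.383% and 0.338% in Lgr5-CREPTKO mice. The means of 1764 ± 159 and 1698 ± 140 FPKM (SD, n = 2) overlapped and did not differ beyond their spread (exact two-sided permutation p = 0.667). Within each genotype the members moved together between mice: mouse 1 was above mouse 2 in 41 of 46 members among Lgr5-WT and in 41 of 46 among Lgr5-CREPTKO mice, where over all genes tested the shares were 49.7% and 46%. The median difference between mouse 1 and mouse 2 was 0.18 on the log2 scale in Lgr5-WT and 0.17 in Lgr5-CREPTKO mice. Same-numbered mice of the genotypes are different animals, and whether they were handled together was not given in the sources used here.

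The origin recognition complex marks the sites where replication can start. Its 6 subunits had values of 3.96 to 22.7 FPKM, 3 with negative and 3 with positive log2 fold changes, from -0.23 for Orc6 to 0.24 for Orc1. Orc1, the subunit whose level changes with the cell cycle, was 4.79 and 3.96 FPKM in Lgr5-WT and 4.93 and 5.60 FPKM in Lgr5-CREPTKO mice (log2 fold change 0.24, SE 0.144, adjusted p = 0.363). Its genotypes did not overlap, but the gap between the nearest values was smaller than the spread within either genotype. Orc4 and Orc6 lay below both Lgr5-WT values and Orc1 and Orc5 above, and none passed the test.

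The licensing factors did not pass the test. Cdt1, which brings MCM2-7 to the origin, was 44.7 and 45.6 FPKM in Lgr5-WT and 53.7 and 48.5 FPKM in Lgr5-CREPTKO mice (log2 fold change 0.17, adjusted p = 0.262). Gmnn, its inhibitor, was 37.6 and 35.7 FPKM against 32.1 and 30.6 FPKM (log2 fold change -0.22, 95% interval -0.42 to -0.03). The genotypes did not overlap in either gene, and the ratio of Gmnn to Cdt1 in FPKM was 0.841 and 0.783 in Lgr5-WT and 0.598 and 0.63 in Lgr5-CREPTKO mice. With the trend in transcript length removed, a step described below, limma gave -0.01 for Gmnn (adjusted p = 0.947) and 0.29 for Cdt1 (adjusted p = 0.177). The AAA+ ATPase Cdc6 was 5.82 to 8.68 FPKM over the 4 mice, and its genotypes overlapped.

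The 6 subunits of the MCM2-7 ring, the core of the helicase, were among the most highly expressed members, at 38.3 to 139 FPKM. Mcm6 was 125 and 108 FPKM in Lgr5-WT and 139 and 128 FPKM in Lgr5-CREPTKO mice, a log2 fold change of 0.19 (SE 0.1, 95% interval -0.06 to 0.45, adjusted p = 0.304). Mcm7 was 105 and 89.4 FPKM against 107 and 99.6 FPKM (log2 fold change 0.09, interval -0.17 to 0.36). In Mcm6 both Lgr5-CREPTKO values lay above the Lgr5-WT values, and in the other 5 subunits the genotypes overlapped.

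Mcm2 was 65.1 and 55.8 FPKM in Lgr5-WT and 62.4 and 64.6 FPKM in Lgr5-CREPTKO mice (log2 fold change 0.08, interval -0.17 to 0.32). Mcm3 was 59.1 and 48.9 FPKM against 62.9 and 56.8 FPKM (0.15, interval -0.15 to 0.45). Mcm5 was 66.1 and 54.4 FPKM against 65.2 and 63.7 FPKM (0.10, interval -0.18 to 0.38). In these subunits Lgr5-WT mouse 2 had the lowest value. Mcm4 was 43.6 and 38.3 FPKM against 42.5 and 41.9 FPKM (0.04, interval -0.18 to 0.27). The 6 summed to 464 and 395 FPKM in Lgr5-WT and to 479 and 454 FPKM in Lgr5-CREPTKO mice, means of 430 ± 49.1 and 467 ± 17.7 FPKM (SD, n = 2, exact two-sided permutation p = 0.667). Without Lgr5-WT mouse 2 the log2 fold changes of Mcm2, Mcm4, Mcm5 and Mcm7 turned negative, to -0.03, -0.05, -0.04 and -0.02. Mcm7 shares 23.3% of its sequence with other genes, Gm5487 among them, and 12.6% of its exons overlap other genes, so its level is less certain.

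**Figure D2:**
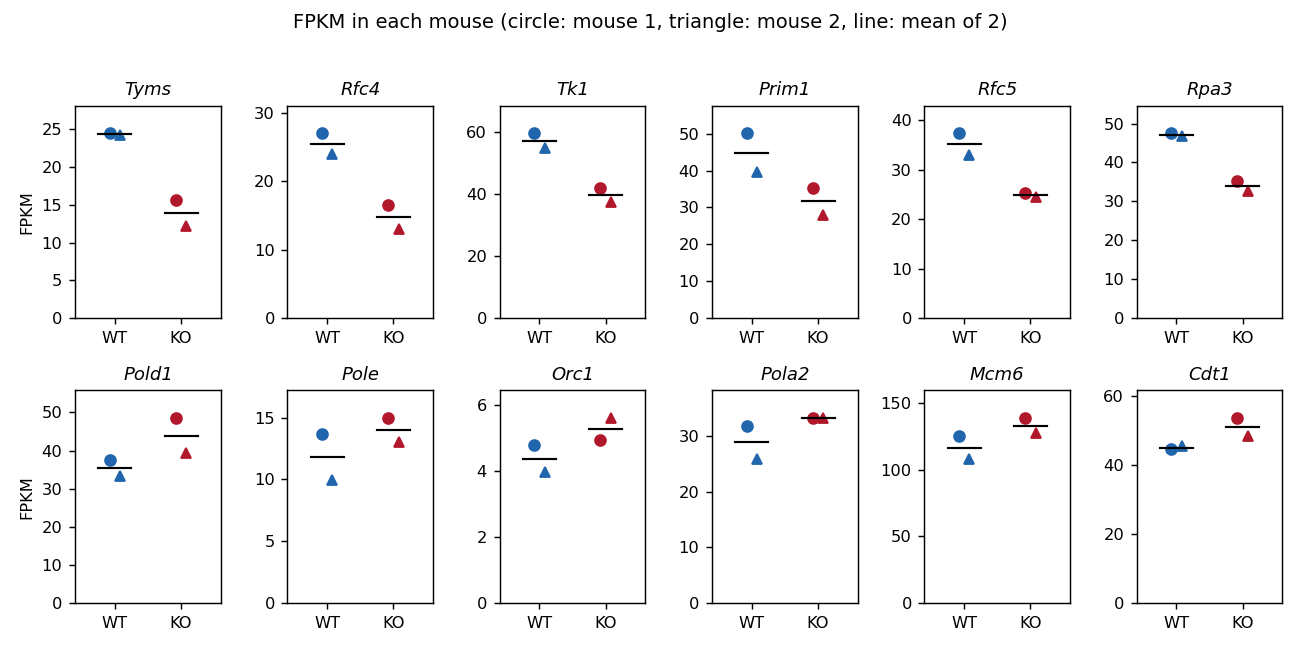
FPKM (y axis, from 0) of the 6 members with the lowest log2 fold changes (top row) and the 6 with the highest (bottom row) in Lgr5-WT (WT) and Lgr5-CREPTKO (KO) mice, with a circle for mouse 1, a triangle for mouse 2 and a line at the mean of 2. In the top row both KO points lie below both WT points, and in the bottom row both lie above, except in Pole.

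Of the 6 members that activate the helicase, 5 had a negative log2 fold change, as did 6367 of the 12185 genes with a transcript length. Both Lgr5-CREPTKO values lay below both Lgr5-WT values in 2 of the 6, where 31.0% of all genes did. Gins2, a GINS subunit, was 27.5 and 24.5 FPKM in Lgr5-WT and 22.7 and 17.4 FPKM in Lgr5-CREPTKO mice (log2 fold change -0.38, SE 0.147, adjusted p = 0.206). Exons of Gse1 on the other strand cover 67.3% of the exons of Gins2, and whether the libraries kept strand was not given in the sources used here, so reads of the pair may be mixed. Cdc45, Gins1, Gins3 and Mcm10 overlapped between genotypes, with values of 3.69 to 23.9 FPKM, and Gins4 did not. With the trend in transcript length removed, a step described below, Gins2 was at -0.385 and the others ran from -0.03 for Gins3 to 0.05 for Gins1.

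Polymerase alpha and its primase start each new strand. Prim1, the catalytic subunit of the primase, was 50.1 and 39.6 FPKM in Lgr5-WT and 35.2 and 28.0 FPKM in Lgr5-CREPTKO mice (log2 fold change -0.50, SE 0.163, adjusted p = 0.153). Both Lgr5-CREPTKO values were lower, but the Lgr5-WT mice differed from each other by more than the gap between the genotypes. Pola2, the accessory subunit of polymerase alpha, was 31.8 and 25.9 FPKM against 33.2 and 33.2 FPKM (log2 fold change 0.21, SE 0.114, adjusted p = 0.334). The ratio of Prim1 to Pola2 was 1.58 and 1.53 in Lgr5-WT and 1.06 and 0.843 in Lgr5-CREPTKO mice.

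Pold1, the catalytic subunit of polymerase delta, had the highest log2 fold change of the 46, with 37.4 and 33.2 FPKM in Lgr5-WT and 48.5 and 39.4 FPKM in Lgr5-CREPTKO mice (0.31, SE 0.127, adjusted p = 0.226). Pold3, an accessory subunit, was 32.1 and 34.5 FPKM against 28.1 and 27.1 FPKM (log2 fold change -0.26, adjusted p = 0.131). The genotypes did not overlap in either, and Pold3 to Pold1 was 0.857 and 1.04 in Lgr5-WT and 0.58 and 0.688 in Lgr5-CREPTKO mice. Pole, the catalytic subunit of the polymerase of the leading strand, was 13.6 and 9.92 FPKM against 14.9 and 13.0 FPKM (log2 fold change 0.25, SE 0.173, adjusted p = 0.428), and its genotypes overlapped, as did those of its partner Pole2.

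The clamp Pcna was the most highly expressed member, with 255 and 212 FPKM in Lgr5-WT and 230 and 193 FPKM in Lgr5-CREPTKO mice (log2 fold change -0.14, interval -0.48 to 0.20), and the genotypes overlapped. Pcna shares 19.1% of its sequence with Pcna-ps2. Its loader is a ring of a large subunit, Rfc1, and small subunits Rfc2 to Rfc5. Rfc4 was 27.0 and 24.0 FPKM in Lgr5-WT and 16.6 and 13.0 FPKM in Lgr5-CREPTKO mice, a log2 fold change of -0.77 (SE 0.14, 95% interval -1.13 to -0.41) that did not pass the test (adjusted p = 0.0608). Rfc5 was 37.3 and 32.9 FPKM against 25.3 and 24.5 FPKM (log2 fold change -0.48, SE 0.0907, adjusted p = 0.0638). In both genes the gap between the genotypes was larger than the spread within them. Rfc1 had a log2 fold change of 0.17 and Rfc3 of -0.09, and both overlapped, while Rfc2 (-0.22) lay below both Lgr5-WT values, so the subunits of one ring ran from -0.77 to 0.17. The ratio of Rfc4 to Rfc1 was 1.11 and 1.12 in Lgr5-WT and 0.6 and 0.541 in Lgr5-CREPTKO mice. Exons of other genes overlap 12.7% of those of Rfc4 and 10.7% of those of Rfc5.

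RPA is a trimer. Rpa3 was 47.5 and 46.8 FPKM in Lgr5-WT and 35.1 and 32.6 FPKM in Lgr5-CREPTKO mice, 28.1% lower by the means, with a log2 fold change of -0.47 (SE 0.0745, 95% interval -0.66 to -0.28, adjusted p = 0.0492). The Lgr5-WT mice differed by less than 1 FPKM and both Lgr5-CREPTKO mice were far below them. The other subunits overlapped between genotypes, Rpa1 at 32.9 to 41.2 FPKM and Rpa2 at 28.6 to 34.2 FPKM. Rpa3 to Rpa1 was 1.18 and 1.43 in Lgr5-WT and 0.852 and 0.915 in Lgr5-CREPTKO mice. The call of Rpa3 was lost under most other settings, among them a correction for transcript length (log2 fold change -0.23, adjusted p = 0.274), and 9.5% of its sequence is shared with other genes. Fen1 and Lig1, which finish Okazaki fragments, had log2 fold changes of -0.11 and 0.05. Exons of Tmem258 and Gm10143 on the other strand cover 84.2% of those of Fen1, so its value is uncertain.

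**Figure D3:**
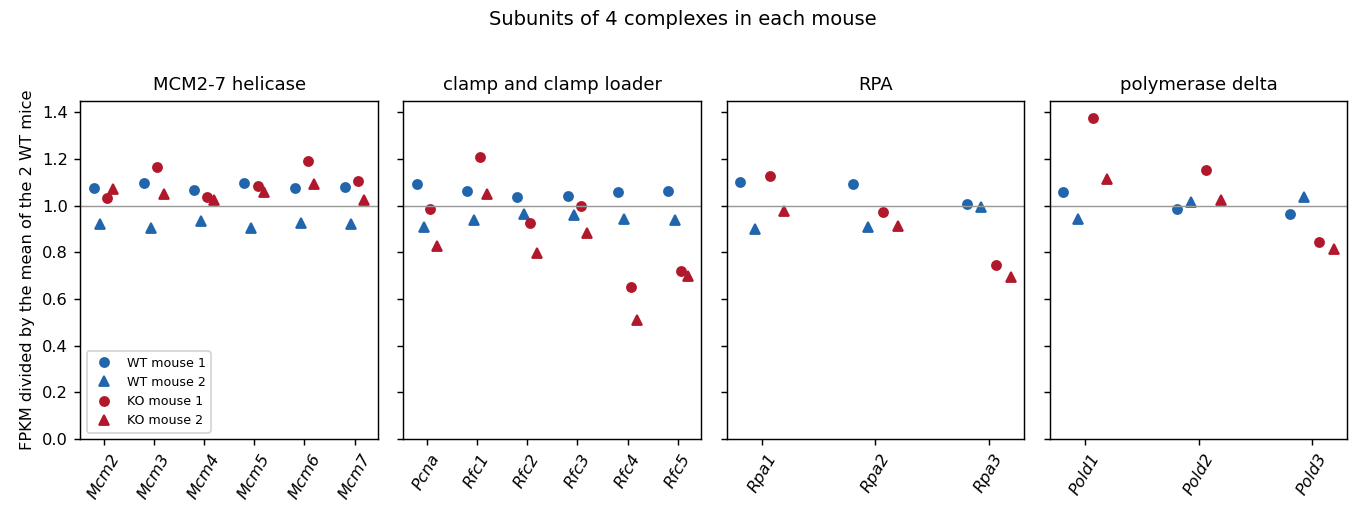
FPKM of each subunit of 4 complexes in each mouse, divided by the mean of the 2 Lgr5-WT mice (y axis, from 0, with a line at 1; WT is Lgr5-WT and KO is Lgr5-CREPTKO). The KO points of the MCM2-7 genes lie above the line and, except in Mcm6, overlap the WT points, while Rfc4, Rfc5, Rpa3 and Pold3 have both KO points below both WT points and Rfc1 and Pold1 have KO points above the line.

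The ratios of 2 subunits given here compare levels per length, and since each pair was picked as the lowest and highest log2 fold change of its complex after the values were seen, they are given as a description with no test.

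Among the 5 nucleotide supply genes, both Lgr5-CREPTKO values lay below both Lgr5-WT values in the pair that makes thymidylate, and the genotypes overlapped in the other 3. Tyms, thymidylate synthase, was 24.5 and 24.3 FPKM in Lgr5-WT and 15.7 and 12.2 FPKM in Lgr5-CREPTKO mice, the lowest log2 fold change of the 46 at -0.79 (SE 0.134, 95% interval -1.14 to -0.45), and did not pass the test (adjusted p = 0.056). Tk1, thymidine kinase of the salvage route, was 59.5 and 54.8 FPKM against 42.0 and 37.6 FPKM (log2 fold change -0.52, SE 0.0906, adjusted p = 0.0586). In both genes each Lgr5-CREPTKO mouse lay well under both Lgr5-WT mice.

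Rrm1, the large subunit of ribonucleotide reductase, which makes deoxynucleotides, was 53.7 and 45.6 FPKM in Lgr5-WT and 55.7 and 44.5 FPKM in Lgr5-CREPTKO mice (log2 fold change 0.01, interval -0.36 to 0.37). Rrm2, its S-phase small subunit, was 31.8 and 21.1 FPKM against 31.8 and 23.3 FPKM (0.07, interval -0.55 to 0.69). Dut, which removes dUTP, was 27.4 and 28.1 FPKM against 28.5 and 21.8 FPKM (-0.15, interval -0.51 to 0.21). In all of these the genotypes overlapped, and the wide intervals do not show that the levels were alike.

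To set the members beside the helicase of the same cells, each gene was also taken relative to the mean log2 level of Mcm2 to Mcm7 in the same mouse, a step added after the data were seen. On this scale 24 members (52.2%) lay below both Lgr5-WT values, where 37.0% of all genes tested did, and 4 (8.70%) lay above, where 11.1% did. All 6 MCM genes had positive log2 fold changes, which lowers every gene in Lgr5-CREPTKO mice on this scale. The MCM genes are themselves members, and members moved together between mice (mouse 1 above mouse 2 in 41 of 46 in each genotype). The scale can thus narrow their spread within a genotype more than that of other genes. The shares of members and of all genes are therefore not alike in this respect, and no test was made of them. The proliferation marker Mki67 was 55.9 and 48.9 FPKM in Lgr5-WT and 66.1 and 57.6 FPKM in Lgr5-CREPTKO mice (adjusted p = 0.256), and of 8 cycling cell markers 5 lay below both Lgr5-WT values (31.0% of all genes), 1 above (25.6%), and 0 passed limma's test. Mki67 has a transcript of 10061 bases. Its log2 fold change of 0.24 became 0.05 with the trend in transcript length removed, a step described below.

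Fold changes rose with transcript length in these libraries, among the members and among all genes. Across the 46 members Spearman's rho between log2 fold change and transcript length was 0.435, and across the 12185 genes with a length it was 0.36, where genes are not independent replicates and share the 4 libraries. Below 1500 bases the median log2 fold change was -0.23 for 8 members and -0.18 for 2367 genes, and 6 of the 8 members lay below both Lgr5-WT values, where 49.1% of the genes did. Between 1500 and 3000 bases the medians were -0.04 for 19 members and -0.06 for 4222 genes. There 3 members lay below both Lgr5-WT values (36% of the genes) and 5 above (18%). Above 3000 bases the medians were 0.05 for 19 members and 0.07 for 5596 genes, with 5 members below (19.5% of the genes) and 2 above (38.6%). Rpa3 has a transcript of 670 bases, Rfc4 of 1228, Tk1 of 1440 and Prim1 of 1583, while Rfc5 has 2796 and Tyms 3163. Rfc1 and Rpa1, which overlapped, have 4751 and 5077 bases.

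With a smooth trend in length removed from each mouse, also a step added after the data were seen, 0 members passed limma's test in either direction, against 0.533% of genes lower and 0.0574% higher. The lowest adjusted p was that of Tyms, at 0.0804 with a log2 fold change of -0.76. Rfc5 was then at -0.42 (adjusted p = 0.104), Rfc4 at -0.57 (adjusted p = 0.155) and Tk1 at -0.34 (adjusted p = 0.185). The part of length in the fold changes was not tested further, and the lengths used for FPKM were not given in the sources used here.

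**Figure D4:**
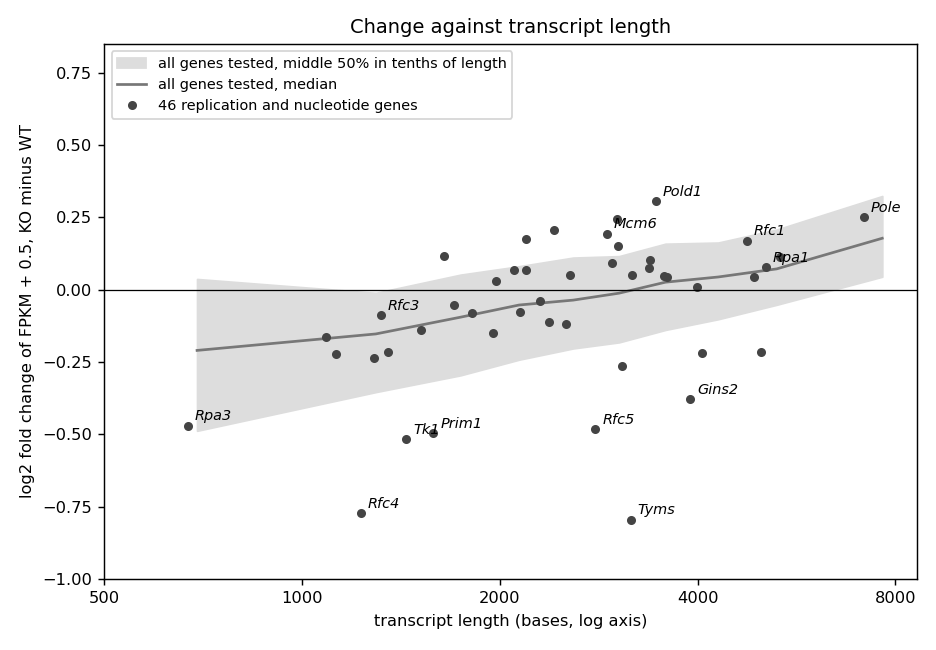
Log2 fold change (y axis, difference of log2(FPKM + 0.5), Lgr5-CREPTKO minus Lgr5-WT) against transcript length in bases (log axis). Points are the 46 members, the line is the median of all genes tested in consecutive bins of length, and the band holds the middle 50% of them. Rpa3, at 670 bases, lies near the lower edge of the band, and Tyms, at 3163 bases, far under it.

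Another 79 genes of replication and nucleotide metabolism were listed by role, of which 78 were tested. Limma called 2 of them lower and 0 higher, where 2.67% and 0.412% of all genes were called, and at an unadjusted p below 0.05 there were 15 lower and 5 higher, against 15.2% and 9.27% of all genes. In 27 both Lgr5-CREPTKO values lay below both Lgr5-WT values and in 19 above, against 31.0% and 25.6% of all genes. Both called genes encode small subunits. Rnaseh2c, a subunit of the ribonuclease H2 that removes ribonucleotides from DNA, was 69.1 and 78.7 FPKM in Lgr5-WT and 31.6 and 32.4 FPKM in Lgr5-CREPTKO mice (log2 fold change -1.19, SE 0.0886, adjusted p = 0.028). Its level was far lower in both Lgr5-CREPTKO mice than in either Lgr5-WT mouse, and with the length trend removed it remained called (-0.98, adjusted p = 0.0368). Exons of Kat5 on the other strand overlap 24.8% of its own. Pole3, a histone-fold subunit of polymerase epsilon, was 51.8 and 51.2 FPKM against 38.5 and 37.1 FPKM (log2 fold change -0.44, SE 0.0684, adjusted p = 0.0474), and its call was lost with the length trend removed (adjusted p = 0.134).

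In the list of small polymerase subunits and fork nucleases, which holds both called genes, 9 of 11 log2 fold changes were negative. Of the 12185 genes with a length 6367 were negative. Of the 11, 4 lay below both Lgr5-WT values, where 31.0% of all genes did. With the length trend removed Pold4, Pole4 and Rnaseh2b turned positive, to 0.14, 0.03 and 0.02. The other lists had 0 called genes. Among the 11 origin firing kinases and factors 8 were positive and 4 lay above both Lgr5-WT values, where 25.6% of all genes did. The lowest was Donson, a factor of helicase assembly (log2 fold change -0.76, adjusted p = 0.0577). Its values were 12.2 and 11.4 FPKM in Lgr5-WT and 7.54 and 6.08 FPKM in Lgr5-CREPTKO mice. The genotypes were apart in Donson by more than their spread, while Ticrr (0.23) and Cdc7 (0.22), which act on origin firing, were higher in value but had adjusted p of 0.373 and 0.322. Exons of Atp5o on the same strand and of Son on the other overlap 12.5% of those of Donson.

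Of 12 purine synthesis genes 10 had positive log2 fold changes and 9 lay above both Lgr5-WT values, with a median of 0.15. Of all genes tested 25.6% lay above, of those with transcripts of 1500 to 3000 bases 18%, and of those over 3000 bases 38.6%. Of the purine genes that lay above, Prps1, Paics, Atic, Adss and Impdh1 have transcripts of 1500 to 3000 bases. Impdh1, a step toward GTP, was 11.4 and 10.1 FPKM in Lgr5-WT and 15.8 and 14.5 FPKM in Lgr5-CREPTKO mice (log2 fold change 0.48, adjusted p = 0.0761), while the more abundant Impdh2 was 284 and 308 FPKM against 249 and 251 FPKM, with 39.3% of its sequence shared with Impdh2-ps. Both genes were without overlap between genotypes, in opposite directions. Gart, which catalyses several steps of the pathway, had a log2 fold change of 0.27 (adjusted p = 0.121), and Prps2, which makes the ribose phosphate precursor, also of 0.27 (adjusted p = 0.14).

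Among 7 folate cycle genes, which feed thymidylate synthase, 4 lay below both Lgr5-WT values and 3 above, against 31.0% and 25.6% of all genes, with a median log2 fold change of -0.33. The mitochondrial enzyme genes Mthfd1l and Mthfd2l both had log2 fold changes of -0.37 (adjusted p 0.179 and 0.142). The 3 that lay above were Shmt1, Shmt2 and Mthfd1, with log2 fold changes of 0.18, 0.12 and 0.20. Of 16 deoxynucleotide salvage and control genes 12 had negative log2 fold changes and 9 lay below, with a median of -0.10. Of all genes tested 31.0% lay below, of those with transcripts under 1500 bases 49.1%, and of those over 3000 bases 19.5%. Of the salvage and control genes that lay below, Samhd1, Cmpk1 and Nme1 have transcripts over 3000 bases and the others under 1500. The nucleotidase Nt5c was 126 and 119 FPKM against 92.5 and 100 FPKM (log2 fold change -0.35, adjusted p = 0.0834), and the genotypes did not overlap. The deaminase Dctd had a log2 fold change of 0.29 (adjusted p = 0.401) and the kinase Cmpk1 of -0.25 (adjusted p = 0.127).

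The remaining lists were short. The 5 pyrimidine synthesis genes had a median log2 fold change of 0.05, from -0.30 for Umps, with Cad and Ctps at 0.10 and 0.06. The 7 genes of chromatin and methylation coupled to replication had a median of 0.01, with the histone chaperones Asf1a (48.0% of its exons overlap Mcm9 on the other strand) at -0.34 and Asf1b at -0.23 and the methyltransferase Dnmt1 at 0.18. The 4 fork protection genes had a median of 0.03, with Timeless at 0.32, Wdhd1 at 0.12 and Tipin at -0.10, and the 5 alternative clamp loader genes one of -0.23, with Chtf18 at -0.57, Dscc1 at -0.28 and Rad17 at -0.23. Their adjusted p ran from 0.0968 for Asf1a upward.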

How the data were processed

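The authors deposited 1 table of FPKM values, 1 column per mouse, made by RSEM on Bowtie2 alignments to GRCm38.p6 reference transcripts by the study's methods, which do not name the sorted cells separately. The submitters' processing notes also list HISAT and mm10. No counts were used, so absolute depth is unknown. Relative to the first Lgr5-WT mouse, single-read steps at small RNA genes were 0.986 in Lgr5-WT mouse 2. They were 0.992 and 1.03 in Lgr5-CREPTKO mice 1 and 2. The FPKM of a single read falls as depth rises, so these steps run inversely to depth. Columns matched sample titles. Here log2(FPKM + 0.5) was tested with limma 3.58.1 (intensity trend) in R 4.3.3 for genes averaging 0.5 FPKM or more, as the study's model needs counts. Same-numbered mice are different animals. Transcript lengths (the longest principal coding transcript) came from GENCODE M21, and promoters from RefSeq, both GRCm38.p6. Named in full were members past the threshold, the 5 highest and 5 lowest log2 fold changes, and the MCM2-7 and nucleotide supply genes, and of each other list the genes past the threshold or, with none, the 3 largest changes, of which 1 is not reported here. Cdt1, Gmnn, Gins2, Pold3, Pcna, Mki67 and Impdh2 were chosen after their values were seen. Members and lists were chosen with earlier results of these data known. The method was tested on simulated data.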

Additional observations from a re-analysis of the deposited data

How the results depend on the processing

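The count of members past the adjusted p of 0.05 rested on the setting. It was 1, and became 0 with no filter on low values, median, quantile or sum scaling, no intensity trend, the replicate block or either correction for length or for length and GC content, and 5 with a mean of at least 5 FPKM, where Tyms, Rfc4, Tk1 and Rfc5 joined Rpa3 (adjusted p 0.0376 to 0.0463 for the 4). Leaving out any one mouse gave 0 to 0 members, and 0 of 12621 genes over the whole table. The members below both Lgr5-WT values, 14, became 9 with either correction, 24 relative to the MCM genes, and up to 26 without a mouse. Those above, 7, became 13 with sum scaling, which moved the median of all genes to 0.06, and up to 22 without a mouse. With a mouse left out fewer values have to be in order, so both counts can only stay or rise, whatever the genes. The shares of all genes were not counted with a mouse left out, with sum scaling or with either correction. Under these settings the counts do not set the members apart from other genes. The median log2 fold change of the members ran from -0.149 to 0.084 without a mouse. Of the other replication and nucleotide genes 2 were called. This became 1 with median, quantile or sum scaling, the replicate block or either correction, and 0 with no filter, no intensity trend or any mouse left out.

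Rprd1b kept its log2 fold change of -1.30 with no filter (adjusted p = 0.116) and no intensity trend (adjusted p = 0.0623), and ran from -1.36 to -1.23 without a mouse (adjusted p 0.144 to 0.305). Log2 fold changes that changed sign without a mouse ran from -0.035 to 0.186 for Mcm2, -0.047 to 0.137 for Mcm4, -0.036 to 0.241 for Mcm5, -0.021 to 0.209 for Mcm7, -0.34 to 0.04 for Dut, -0.15 to 0.17 for Rrm1 and -0.22 to 0.36 for Rrm2, and Rrm1 was -0.003 with the length trend removed. The cause was not tested. Tyms, Rfc4, Tk1, Prim1, Rfc5 and Rpa3 kept a negative sign under all 15 alternatives. The corrections and the scale relative to the MCM genes were chosen after seeing the data. The labels do not pair the mice by number. The differences of mouse 1 and mouse 2 in the genotypes correlated with r = -0.0266 across 12621 genes. Among the members, mouse 1 was above mouse 2 in 41 of 46 in each genotype. Whether same-numbered mice were handled together was not tested. The replicate block lowered the calls over all genes from 389 to 183.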
